A study of Homo sapiens with 6 samples.

Results

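The miR-421 line is 22RV1, an established human prostate cancer line that makes SPINK1, carrying a lentiviral vector for the microRNA miR-421. It was compared with 22RV1 carrying the same kind of vector with a red fluorescent protein in place of the microRNA. Of the 6 Agilent 2-colour arrays in the study, 3 held this line: a sample labelled as a pool, replicate 1 and replicate 2. They were chosen by their labels alone. On each of them Cy5 held RNA of the miR-421 line and Cy3 held RNA of the control line, with no dye swap. The other 3 arrays held a 22RV1 line with a vector for miR-338-5p, replicates 1 to 3, in Cy5 against the same kind of control in Cy3. The labels name the same control vector for both comparisons but do not say whether 1 culture served all arrays. All 3 lines were kept in RPMI medium with serum and puromycin, which selects cells that carry a vector. The sources used here do not say how many vector integrations or founder cells a line had, what was pooled, or whether replicates were separate cultures. Each p-value therefore measures the spread between these samples, which may be technical. In the main fit that spread was estimated over both lines together. A p-value for the miR-421 line thus also carries the scatter of the miR-338-5p arrays.

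MicroRNAs are short RNAs that guide Argonaute proteins to messenger RNAs. Pairing runs mainly through the seed, bases 2 to 8 of the microRNA, and usually lowers the level or the translation of the paired messenger RNA. The messenger RNA that pairs with a seed holds its reverse complement. miR-421 lies on the X chromosome within a long noncoding transcript, and the series title names it, with miR-338, as repressed by EZH2, the histone methyltransferase of Polycomb repressive complex 2. The 2 mature sequences are shown because the comparison turns on them, with the seed in capitals. They come from RefSeq (GRCh38.p14), where miR-421 spans chrX:74218392-74218414 and miR-338-5p spans chr17:81125923-81125944, both on the minus strand.
hsa-miR-421: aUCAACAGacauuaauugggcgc
hsa-miR-338-5p: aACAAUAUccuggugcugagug
The seeds differ (UCAACAG and ACAAUAU), so the 2 microRNAs belong to different seed families.

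The values are log2 ratios of Cy5 over Cy3, so a positive value is a higher signal in the microRNA line and a value of 1 is a 2-fold ratio. A call is an adjusted p under 0.05 in limma, over all probes tested. In the miR-421 arrays, 44.3% to 44.4% of gene spots were well above background in Cy3, against 47.3% to 47.9% in the miR-338-5p arrays. In Cy5 the share was 47.8% for the pool, 47.5% for replicate 2 and 41.9% for replicate 1. Replicate 1 also had the widest spread of log2 ratios (SD 0.53, against 0.39 for the pool and 0.43 for replicate 2), and the ratios of the 3 arrays correlated at 0.637 to 0.823 across probes. Replicate 1 thus stood apart. Some results are given with and without it, but not every result that rests on it. No gene spot was saturated on any array. Of 15 prostate luminal markers, 14 were well above background in both dyes on all 3 miR-421 arrays, and only TRPM8 never was. Markers of other cell types were in part measured too. Of 11 leukocyte markers 8 were well above background in Cy5 on all 3 arrays and 3 never were (CD163, FCGR3A and MS4A1). Of 10 endothelial markers 3 were and 7 never were (CLDN5, EMCN, FLT1, KDR, PECAM1, TEK and TIE1), and of 10 fibroblast markers 4 were and 5 never were (COL1A2, COL3A1, FAP, PDGFRA and POSTN). The luminal markers thus fit the label of a prostate line, and what the other markers add was not tested. A lower ratio in such bulk RNA cannot separate less RNA per cell from fewer cells with it.

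SPINK1, a secreted trypsin inhibitor, had the lowest log2 ratio of any called gene. Its probe lies on hg19 at chr5:147204211-147207585 on the minus strand, a span longer than the 60 bases of a probe, as for one across splice junctions. The mean spot signal in Cy3 was 14400 on the pool array, 13800 on replicate 1 and 15100 on replicate 2. In Cy5 it was 83.7, 63.3 and 196 on the same arrays, still well above background. The control line thus carried a strong signal on each array and the miR-421 line a weak one. SPINK1 fell by 6.61 ± 0.44 on the log2 scale (SD, n = 3; adjusted p = 0.00775), a 98-fold lower level. Without replicate 2 the mean log2 ratio was -6.85 with an adjusted p of 0.0547. The miR-338-5p arrays gave -3.04, -2.10 and -6.78 for the same probe, a range that overlaps the miR-421 values of -7.01, -6.68 and -6.15. The difference between the lines was -2.64 ± 1.18 (SE; adjusted p = 0.399), so the size of the SPINK1 fall was not shown to differ between the 2 microRNAs.

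EZH2 gave log2 ratios of -0.07 on the pool, -1.34 on replicate 1 and -0.28 on replicate 2 (adjusted p = 0.137). Replicate 1 alone was far below 0. AATK, the kinase gene that hosts the miR-338 locus, gave 1.09, -0.06 and 1.02 (adjusted p = 0.149). A second AATK probe gave -0.05, 0.51 and 0.22 (adjusted p = 0.198). Both probes for FTX, the noncoding transcript that hosts miR-421, stayed at background on every array and were not tested. The level of miR-421 itself was not analysed here, so its overexpression was not checked.

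In the miR-421 line 5950 of 27491 probes (21.6%) were called, 2526 higher and 3424 lower. Counted once per gene, by the probe with the highest mean intensity, 1686 of 15852 genes rose (10.6%) and 2389 fell (15.1%). Most changes were small: 197 genes rose and 414 fell by at least 2-fold, and 19 rose and 41 fell by at least 4-fold. Of the 4075 called genes, 4046 had the same sign on all 3 arrays. In the miR-338-5p line, in the same fit, 726 genes rose (4.58%) and 951 fell (6%). The number of calls depended on which arrays were kept: 3409 probes were called without the pool, 2973 without replicate 1 and 629 without replicate 2. Of the 4075 genes, 2170, 1875 and 450 were called again in these 3 fits, and all with a value kept their sign. With only the miR-421 arrays fitted, 3983 probes were called, and 2467 of the 4075 genes were called again. By gene, 1028 of 15852 rose and 1354 fell without the pool, and 942 and 1205 without replicate 1. Without replicate 2 these were 177 and 277 of 15843. With median centring they were 1058 and 1479 of 15852, and without the filter 1077 and 1634. Counts of gene lists in such fits, given below, are to be read beside these numbers.

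**Figure D1:**
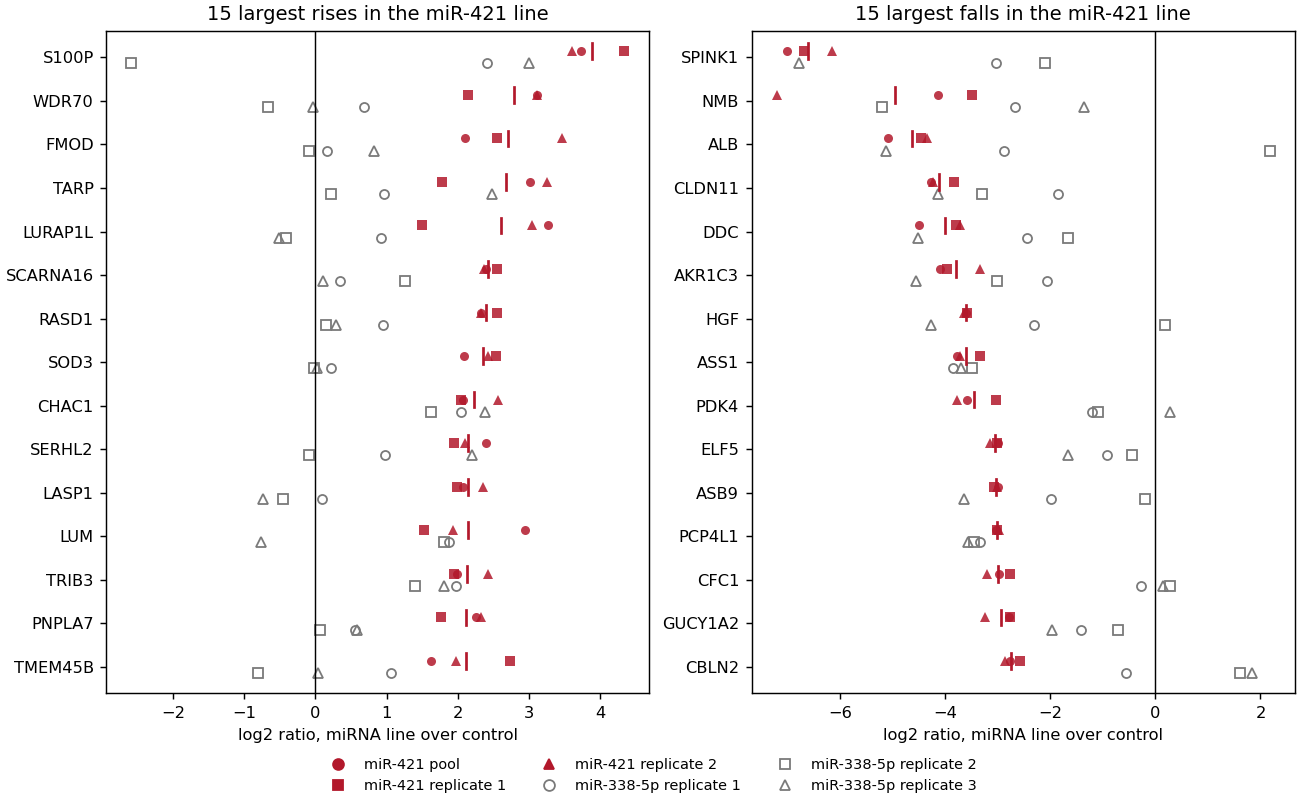
Log2 ratio of the microRNA line over control on each array (x axis) for the 15 largest rises (left) and the 15 largest falls (right) among called genes of the miR-421 line. Filled symbols are the 3 miR-421 arrays, open symbols the 3 miR-338-5p arrays, and the vertical tick is the miR-421 mean; the miR-421 symbols lie to the outer side of every miR-338-5p symbol for 10 of the rises and for 5 of the falls.

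The 15 largest rises had means from 2.11 to 3.89. S100P, a small calcium-binding protein of many epithelial tumours, gave 3.73, 4.34 and 3.60, a 14.9-fold higher mean (adjusted p = 0.0452). Its values under miR-338-5p were 2.41, -2.59 and 3.0, so its rise was common to the 3 miR-421 arrays while the miR-338-5p arrays disagreed with each other. S100P lost its call when any miR-421 array was left out (adjusted p = 0.127, 0.145 and 0.151 without the pool, replicate 1 and replicate 2).

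Extracellular superoxide dismutase, SOD3, which removes superoxide outside the cell, gave 2.09 on the pool, 2.54 on replicate 1 and 2.42 on replicate 2. Its mean was 2.35 ± 0.23 (SD, n = 3; adjusted p = 0.00114). Under miR-338-5p it gave 0.22, -0.02 and 0.03, so the 2 lines lay far apart. The difference was 2.27 ± 0.14 (SE; adjusted p = 0.0303). The control channel of SOD3 also differed: its Cy3 signal was 372, 341 and 321 on the miR-421 arrays and 194, 178 and 174 on the miR-338-5p arrays. After normalization between arrays its Cy3 level was higher on the miR-421 arrays by 1.04 on the log2 scale, a size reached by 69 of 15855 genes (0.435%). What this shift contributes to the ratios was not tested.

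RASD1, a Ras-like protein first found as induced by glucocorticoid, gave 2.33, 2.55 and 2.32 (adjusted p = 0.00237). LASP1, an actin-binding LIM and SH3 protein of focal adhesions, gave 2.07, 1.99 and 2.36 (adjusted p = 0.00289) against 0.09, -0.45 and -0.74 under miR-338-5p. PNPLA7, a lysophospholipase, gave 2.25, 1.76 and 2.33 (adjusted p = 0.00255). These 3 genes each had miR-421 values close together and above all miR-338-5p values, and each kept its call without any 1 of the miR-421 arrays. None passed the test of the difference (adjusted p = 0.0688, 0.0559 and 0.0719).

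WDR70, a WD-repeat protein, gave 3.11, 2.14 and 3.11 (adjusted p = 0.0055), with miR-338-5p values of 0.69, -0.67 and -0.03. The proteoglycan fibromodulin, FMOD, which binds collagen fibrils, gave 2.10, 2.55 and 3.47 (adjusted p = 0.00542). SCARNA16, a small Cajal body RNA that guides modification of spliceosomal RNA, gave 2.39, 2.55 and 2.37 (adjusted p = 0.00344). CHAC1 and TRIB3, both induced by amino acid stress, had means of 2.23 and 2.13. They had means of 2.01 and 1.73 under miR-338-5p, and their ranges in the 2 lines overlapped. The other largest rises were TARP (2.68), LURAP1L (2.61), SERHL2 (2.15), LUM (2.14) and TMEM45B (2.11). TARP, the alternate reading frame protein of the T cell receptor gamma locus, is made by prostate cells under androgen. SERHL2 has a close copy, SERHL, whose signal the array may not separate, and its second probe had a mean of 0.54. Second probes also gave a lower mean for CHAC1 (0.72). Of the 15 genes, 9 were called whichever miR-421 array was left out. The exceptions were S100P, TARP, LURAP1L, SERHL2, LUM and TMEM45B.

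The 15 largest falls had means from -6.61 to -2.74. NMB, the neuropeptide neuromedin B, gave -4.14, -3.49 and -7.21 (adjusted p = 0.0191), with replicate 2 far below the other arrays. ALB, serum albumin, gave -5.08, -4.46 and -4.35 (adjusted p = 0.0474), and its Cy5 signal was above background on 2 of the 3 arrays. HGF, the ligand of the MET receptor, gave -3.61, -3.59 and -3.64 (adjusted p = 0.0241), while the miR-338-5p arrays gave -2.31, 0.19 and -4.27. The miR-421 arrays thus agreed closely on HGF where the miR-338-5p arrays did not.

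Enzymes among the falls were DDC, which makes dopamine and serotonin (-4.00), AKR1C3, which makes active androgens (-3.80), ASS1 of the urea cycle (-3.61) and PDK4, which inhibits pyruvate dehydrogenase (-3.46). AKR1C3 is one of a family of near-identical genes, so its probe may read more than one of them. ASS1 fell on every array of the study: -3.77, -3.33 and -3.72 under miR-421 (adjusted p = 0.000436) and -3.85, -3.49 and -3.70 under miR-338-5p. PDK4 behaved otherwise, with -3.58, -3.04 and -3.77 under miR-421 (adjusted p = 0.00365) and -1.20, -1.1 and 0.28 under miR-338-5p. The difference for PDK4 was -2.79 ± 0.43 (SE), with an adjusted p of 0.0999.

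CLDN11, a tight junction protein, gave -4.27, -3.84 and -4.24 (adjusted p = 0.00441). The small protein PCP4L1 gave -3.04, -3.02 and -2.97 (adjusted p = 9.85e-05), and -3.33, -3.45 and -3.56 under miR-338-5p. ELF5, an epithelial ETS factor, gave -3.0, -3.02 and -3.15 (adjusted p = 0.00253), all below the miR-338-5p values of -0.93, -0.45 and -1.66. A second ELF5 probe had a smaller mean of -0.96 (adjusted p = 0.00499). CBLN2, a secreted synapse organiser, gave -2.76, -2.58 and -2.87 (adjusted p = 0.0133) against -0.55, 1.61 and 1.83. The remaining falls were ASB9 (-3.03), CFC1 (-2.99) and GUCY1A2 (-2.93), the last with Cy5 above background on 2 of 3 arrays and a mean of -0.68 on its second probe. Of the 15 falls, 8 were called whichever miR-421 array was left out. SPINK1, NMB, ALB, DDC, HGF, ASB9 and CBLN2 each lost the call without at least 1 array.

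For 14 genes named in other work as miR-421 targets, 0 rose and 6 fell (42.9%), beside 10.6% and 15.1% of all genes. The list was chosen with earlier results of these data known, and it holds SPINK1, the lowest called gene here. Its counts are therefore a description and no independent test of targeting. Their median log2 ratio was -0.16, beside -0.01 over all genes tested. In the miR-338-5p line 0 of the 14 were higher and 3 lower (median -0.09), where 6% of all genes were lower. The median difference between the lines was 0, and 0 of the 14 passed the test of the difference. Among the 6 were SPINK1, CLDN11, SMAD4, PFKFB2 and NR1H4. SMAD4, the shared mediator of TGF-beta signals, gave -0.65, -1.92 and -0.67 (adjusted p = 0.034), with a mean of -0.23 on its second probe (adjusted p = 0.189). PFKFB2, a regulator of glycolysis, gave -0.43, -0.91 and -0.19 (adjusted p = 0.0484), and 0.27, 0.55 and 0.47 under miR-338-5p, with a mean of -0.28 (adjusted p = 0.121) on its second probe. NR1H4, the bile acid receptor, was not well above background in Cy5 and was at least 1.18-fold lower. CDH1, or E-cadherin, gave -0.03, -0.41 and 0.21, and CBX7, a Polycomb subunit, gave -0.52, 0.07 and -0.19; neither was called. Nor were KEAP1, CUL4B, ATM, NRAS, PRAME and FOXO4, whose means lay between -0.11 and 0.29. Leaving out the pool, replicate 1 or replicate 2 left 3, 4 and 2 of the 14 called lower.

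In the main fit the largest shift of a list median was in genes of the amino acid stress response, the program that ATF4 drives when amino acids are short. Of 30 tested, 22 rose (73.3%) and 1 fell, beside 10.6% and 15.1% of all genes, with a median of 0.81 beside -0.01. The median was 0.78, 0.80 and 1.04 on the pool, replicate 1 and replicate 2, so it was alike on the 3 arrays. With plain background subtraction it was 0.99, beside 1.34 for 5 fibroblast markers and -1.33 for 15 stem cell and drug efflux genes. With median centring it was 0.87, beside 0.9 for 4 keratins of simple epithelia. PCK2, which makes phosphoenolpyruvate in mitochondria, gave 1.41, 2.12 and 1.88 (adjusted p = 0.00365), with a mean of 0.82 on its second probe. ATF3, a stress-induced transcription factor, gave 1.68, 1.43 and 2.27 (adjusted p = 0.00421), while its other probes had means of 0.16 to 0.92. The member that fell was ATF5, at -1.42. The miR-338-5p line had 18 members higher and 1 lower with a median of 0.74, and 2 members lay wholly above and 2 wholly below the miR-338-5p values, beside 10.3% and 11.2% of all genes. Without replicate 2 the count was 11 higher and 0 lower, where 177 of all 15843 genes rose and 277 fell.

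**Figure D2:**
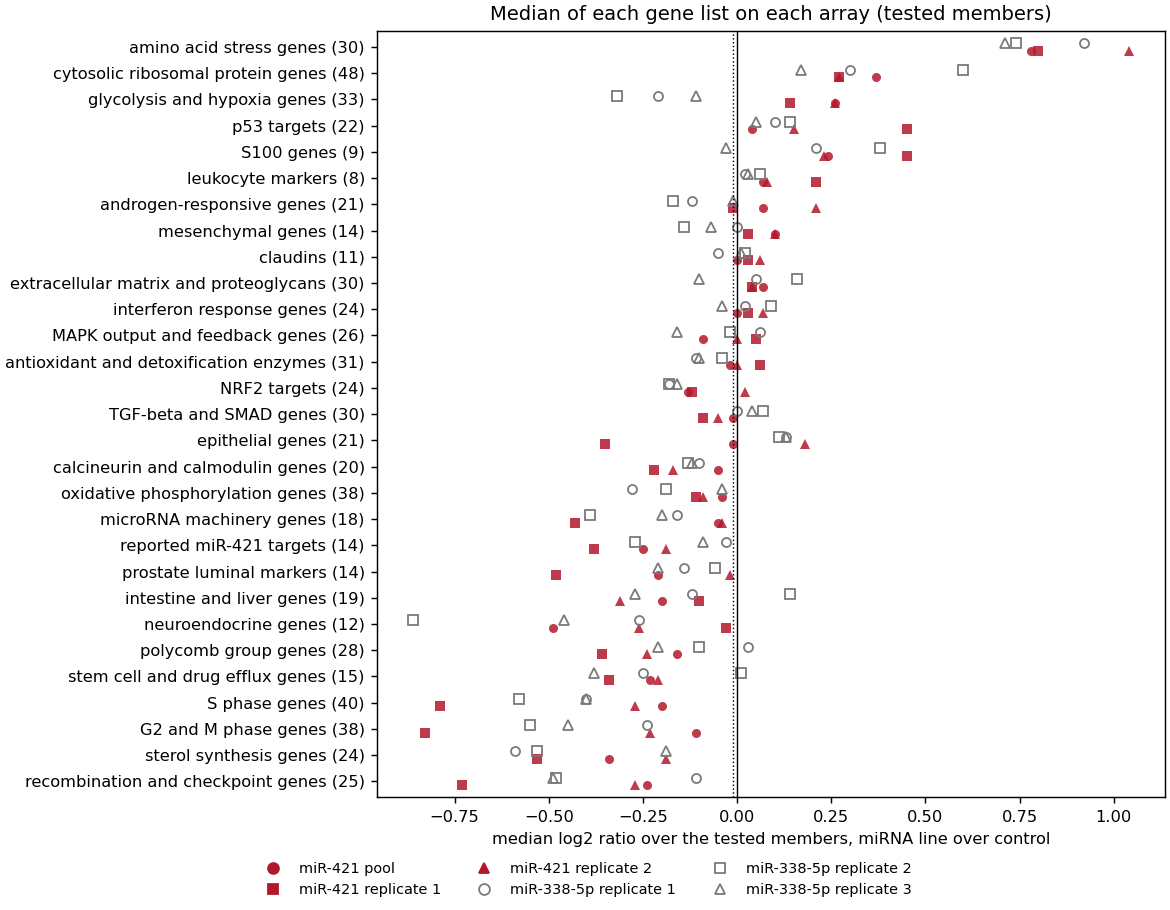
Median log2 ratio (x axis) of each gene list with at least 8 tested members on each array, with the number of tested members in brackets. Filled symbols are miR-421 arrays, open symbols miR-338-5p arrays, and the dotted line is the median over all genes in the miR-421 line (-0.01); amino acid stress genes are the highest list on every array, and replicate 1 is the lowest miR-421 array for S phase, G2 and M phase and recombination genes.

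Cell division genes had negative medians on each miR-421 array, lowest on replicate 1. Of 40 S phase genes 3 rose and 14 fell (35%, beside 15.1% of all genes; median -0.41), with array medians of -0.20 on the pool, -0.79 on replicate 1 and -0.27 on replicate 2. PCNA, the sliding clamp of DNA replication, gave -0.68, -0.95 and -1.13 (adjusted p = 0.00989), and CCNE2, cyclin E2, gave -0.75, -0.84 and -1.04 (adjusted p = 0.00519), though its second probe had a mean of -0.16 (adjusted p = 0.0723). Of 38 G2 and M phase genes 1 rose and 9 fell (23.7%; median -0.48, array medians -0.11, -0.83 and -0.23). CDK1, the mitotic kinase, gave -1.0, -0.90 and -1.37 (adjusted p = 0.00607), and the kinetochore gene CENPE gave -1.52, -1.33 and -1.68 (adjusted p = 0.00344), below all miR-338-5p values. Of 25 genes of recombination and checkpoints 0 rose and 10 fell (40%; median -0.51, array medians -0.24, -0.73 and -0.27). The medians in the miR-338-5p line were -0.47, -0.40 and -0.41 for the 3 lists. Without replicate 1 the S phase count was 3 higher and 9 lower (median -0.25), the G2 and M count 0 and 7 (median -0.16), and the recombination count 0 and 3 (median -0.26). With median centring 2 recombination genes were lower, and 4 without the filter. Without replicate 2 these counts were 0 and 3, 0 and 2, and 0 and 0, where 177 of all 15843 genes rose and 277 fell.

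Polycomb genes bear on the series title. Of 28 tested 1 rose and 9 fell (32.1% lower, beside 15.1% of all genes; median -0.30). In the miR-338-5p line, where 6% of all genes were lower, 1 was higher and 2 were lower (median -0.03), and this difference between the lines was not tested for the list. SUZ12, a core subunit of Polycomb repressive complex 2 beside EZH2, gave -0.90, -1.40 and -1.23 (adjusted p = 0.00701). PHC3 of complex 1 gave -0.58, -1.73 and -1.02 (adjusted p = 0.0248), and AEBP2, an accessory subunit of complex 2, gave -0.53, -1.37 and -0.82 (adjusted p = 0.0284). Replicate 1 gave the lowest value for each of SUZ12, PHC3 and AEBP2. BMI1, the ring finger partner of complex 1, gave -0.65, -0.69 and -0.68 (adjusted p = 0.00949) and 0.37, 0.73 and 0.27 under miR-338-5p. The count of members lower was 7 without the pool, 3 without replicate 1 and 0 without replicate 2, and 4 with median centring.

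Genes of glycolysis and of the response to low oxygen had a positive median difference between the lines. Of 33 tested (36 listed), 10 rose (30.3%) and 3 fell (9.09%) in the miR-421 line, beside 10.6% and 15.1% of all genes (median 0.23), while in the miR-338-5p line 1 was higher and 5 were lower (median -0.21). PGK1, phosphoglycerate kinase, gave 0.72, 0.43 and 0.75 under miR-421 (adjusted p = 0.0261) and -0.44, -0.79 and -0.11 under miR-338-5p. ALDOA, aldolase A, gave 0.62, 0.71 and 0.57 (adjusted p = 0.0157) against -0.58, -0.25 and 0.01. GAPDH gave 0.45, 0.47 and 0.28 (adjusted p = 0.0223) against -0.42, -0.09 and -0.20. Each of these enzymes was higher on all 3 miR-421 arrays than on any miR-338-5p array.

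ENO1, enolase, was not called in the miR-421 line (0.01, 0.12 and 0.26) but lay above its miR-338-5p values of -0.81, -0.65 and -0.67. Its difference of 0.84 had an adjusted p of 0.0688. In all, 17 of the 33 lay wholly above the miR-338-5p range and 1 (PFKFB2) wholly below. Over all 15789 genes with 6 values, 1633 (10.3%) lay above and 1766 (11.2%) below. The difference had an unadjusted p under 0.05 for 18 of the 33 genes and for 2643 of 15855 genes overall. None of the 33 passed after adjustment, and the median difference was 0.38. The lactate exporter SLC16A3 fell (-2.17, -2.23 and -1.96, adjusted p = 0.0183), as did lactate dehydrogenase B, LDHB, with a mean of -0.63, in both cases with overlapping lines. VEGFA, the angiogenic factor, had a mean of 0.81 (adjusted p = 0.00392) and of 0.93 under miR-338-5p. Without the pool, replicate 1 or replicate 2, the count of members higher was 2, 4 and 1.

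**Figure D3:**
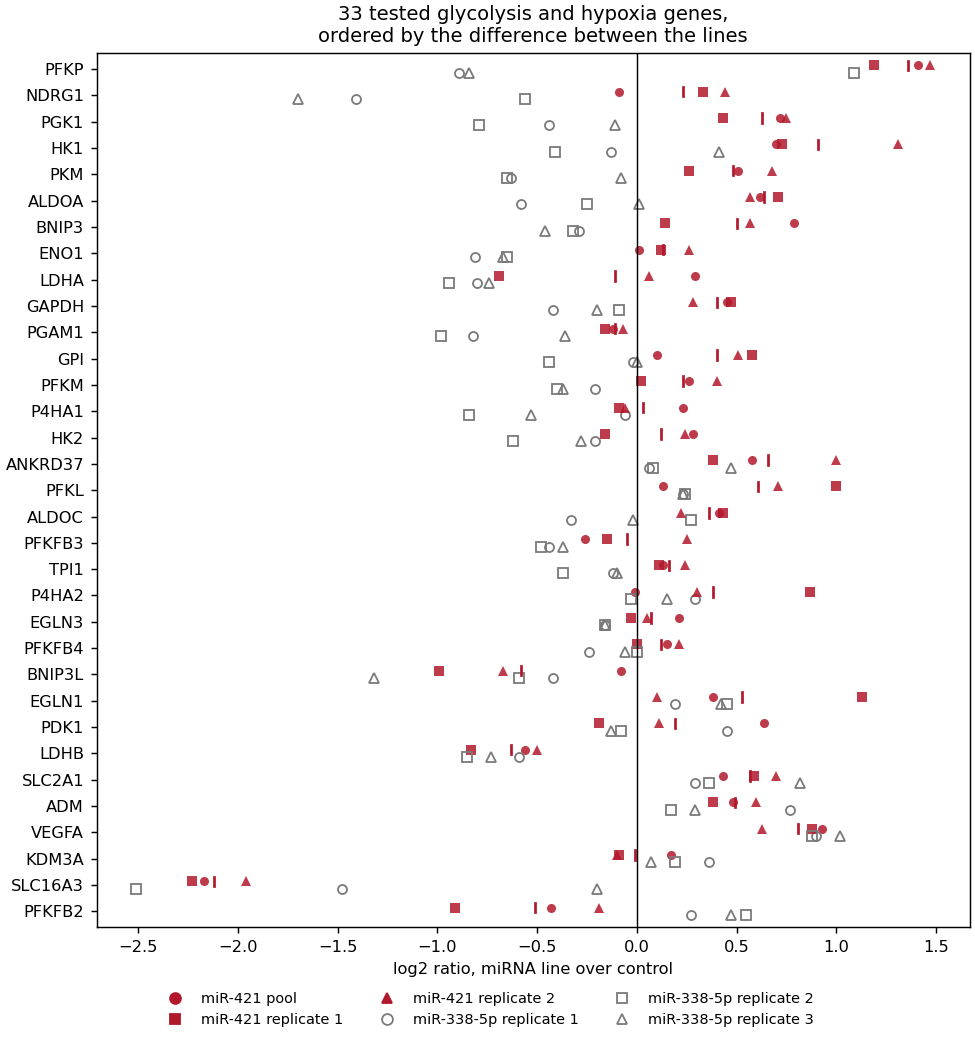
Log2 ratio over control on each array (x axis) for the 33 tested genes of glycolysis and the response to low oxygen, ordered from the largest positive difference (miR-421 minus miR-338-5p) at the top. Filled symbols are miR-421 arrays with their mean as a tick, open symbols miR-338-5p arrays; 17 genes have all filled symbols to the right of all open ones, and PFKFB2 at the bottom has them to the left.

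Of 24 sterol synthesis genes, targets of SREBP2, 2 rose and 9 fell (37.5% lower, beside 15.1% of all genes; median -0.49), and 13 were not called. HMGCS1 gave -1.45, -2.01 and -1.62 (adjusted p = 0.00266), and INSIG1, which holds SREBP in the endoplasmic reticulum, gave -1.11, -2.02 and -1.63 (adjusted p = 0.0055). The miR-338-5p median was also -0.49, with 1 higher and 10 lower. Without replicate 2 the count was 1 higher and 3 lower. Of 24 NRF2 targets 0 rose and 6 fell (25%, beside 15.1% of all genes; median -0.02). UGDH, which makes the sugar for glucuronidation, gave -2.10, -2.72 and -1.89 (adjusted p = 0.00252), and NQO1, a quinone reductase, gave -0.94, -0.75 and -0.71 (adjusted p = 0.0317). Leaving out any 1 of the 3 arrays left 3 of the NRF2 targets lower, and 1 was higher without replicate 1. Of 48 ribosomal protein genes 15 rose and 3 fell with a median of 0.29, but the median was -0.01 with 4 genes called in each direction in the image software's own ratio, so no direction is given for this group.

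Of 30 matrix and proteoglycan genes 9 rose (30%) and 3 fell (10%), and here as for the lists that follow the shares over all genes were 10.6% and 15.1% (median 0.05). FMOD is given above; its relative lumican, LUM, gave 2.95, 1.53 and 1.94 (adjusted p = 0.0437). SPOCK1, another proteoglycan, gave 1.85, 0.64 and 1.63 (adjusted p = 0.0231) and -0.06, -0.72 and -1.07 under miR-338-5p. TNC, tenascin C, gave -1.24, -0.67 and -0.95 (adjusted p = 0.0307). Of the 5 fibroblast markers tested, 2 were called higher: LUM, and COL5A1, which had a value on 1 miR-421 array only. COL1A1 had a mean of 0.06, and the list's array medians were 1.05 on the pool, 0.10 on replicate 1 and 0.74 on replicate 2. The summed signal of the fibroblast markers was 640 to 1749 in Cy5 and 214 to 457 in Cy3, beside 58 to 488 in the Cy5 of the miR-338-5p arrays. COL1A2, COL3A1, FAP, PDGFRA and POSTN were never above background. The summed leukocyte markers were 10839 to 18432 in Cy5 and 6670 to 12624 in Cy3, with CD4 (0.12, 0.73 and 0.43, adjusted p = 0.0439) among those called. The part of other cell types in these results was not tested. Without the pool the matrix count was 4 higher and 1 lower, without replicate 1 it was 7 and 1, and without replicate 2 it was 1 and 0.

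Epithelial and mesenchymal genes did not move as blocks. Of 21 epithelial genes 4 rose and 2 fell (median -0.03), and of 14 mesenchymal genes that passed the filter, out of 26, 2 rose and 2 fell (median 0.07). Vimentin, VIM, the intermediate filament of mesenchymal cells, gave -2.05, -2.08 and -2.67 (adjusted p = 0.027) and 0.02, 2.39 and -0.17 under miR-338-5p. CDH2, or N-cadherin, gave -0.68, -0.62 and -0.91 (adjusted p = 0.00563) on one probe and a mean of -0.17 (adjusted p = 0.0507) on another, while the fibronectin receptor subunit ITGA5 gave 0.71, 0.65 and 0.75 (adjusted p = 0.00289). EPCAM fell (-0.76, -0.86 and -1.08, adjusted p = 0.0146) and the splicing factor ESRP1 rose (0.80, 0.44 and 0.94, adjusted p = 0.0111). Without replicate 2 the epithelial count was 0 higher and 0 lower. The mesenchymal count without any 1 array was 1 higher and 1 lower.

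Prostate identity genes were mostly uncalled. Of 14 luminal markers 1 rose and 1 fell. KRT18, a keratin of simple epithelia, was the one that rose (1.0, 0.63 and 1.27, adjusted p = 0.0142). Of 21 androgen-responsive genes 3 rose and 2 fell: TARP, PMEPA1 (mean 1.23) and GNMT (0.97) were higher, ELL2 (-2.30) and CENPN (-1.18) lower, with means of -0.31 and 0.02 on the other CENPN probes, neither called. KLK3, which encodes prostate-specific antigen, gave 0.93, 0.80 and 1.66 (adjusted p = 0.094). Among neuroendocrine genes 1 of 12 rose (8.33%) and 3 fell (25%), with a median of -0.29. Those that fell included SCGN (mean -1.19) and ENO2 (mean -0.53). The one that rose, CHGA or chromogranin A, a granule protein, gave 1.22, 1.82 and 2.82 (adjusted p = 0.0363) and -0.37, -1.42 and 0.92 under miR-338-5p. Without the pool 1 of the androgen-responsive genes was higher and 2 lower, and CHGA was not called. Without replicate 2 these genes had 0 higher and 1 lower.

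Of 19 intestine and liver genes that passed the filter, out of 36, 0 rose and 5 fell. LGALS4, a galectin of gut epithelium, gave -1.44, -0.98 and -1.43 (adjusted p = 0.00316). Of 24 interferon response genes 2 rose and 4 fell (median 0.00). The 3 adjacent antiviral membrane proteins IFITM1, IFITM2 and IFITM3 had means of -1.19, -1.21 and -1.07 (adjusted p = 0.00835, 0.0166 and 0.0178), each below all miR-338-5p values; their sequences are close, so a probe may read more than one. Of 22 p53 targets 5 rose and 1 fell, with SESN2 (mean 1.23), TNFRSF10B (0.95), BBC3 (0.90) and CDKN1A (0.73) among those higher. Of 18 genes of microRNA processing 2 rose and 4 fell, with DICER1, the enzyme that cuts hairpins into mature microRNAs, at -0.76, -1.74 and -1.30 (adjusted p = 0.013). Without replicate 2 the calls left, higher and lower, were 0 and 2 for intestine and liver, 1 and 0 for interferon, 1 and 0 for p53, and 0 and 0 for microRNA processing genes. Without replicate 1 they were 0 and 3, 2 and 1, 2 and 0, and 2 and 2 in the same order.

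The changes least shared with miR-338-5p were sought by testing the difference of the 2 line means. A control level or dye bias common to all 6 arrays cancels in that difference. Of 27489 probes 13 (0.0473%) passed, and 3753 had an unadjusted p under 0.05. For 7 named genes among them the miR-421 line itself differed from control. CFC1, SOD3, PTPN18, PPP3CA, MAP7D1, VMA22 and COMMD3 were called in that line, while the 6 remaining probes were keratin probes or probes that followed them, near 0 in the miR-421 line and lower in the miR-338-5p line.

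CFC1, a co-receptor of the growth factor NODAL, gave -2.98, -2.77 and -3.21 (probe at hg19 chr2:131356972-131357031, minus strand; adjusted p = 0.00114). Under miR-338-5p it gave -0.27, 0.28 and 0.15. The miR-421 line was low on every array and the miR-338-5p line near 0. The difference was -3.04 ± 0.18 (SE; adjusted p = 0.0303), an 8.23-fold gap.

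PTPN18, a tyrosine phosphatase, gave 1.62, 2.05 and 2.09 (hg19 chr2:131132468-131132527, plus strand; adjusted p = 0.00255) against -0.12, -0.48 and -0.67, a difference of 2.34 (adjusted p = 0.0439). Its second probe had a mean of 1.90 and a difference of 1.65 (adjusted p = 0.0688). VMA22, an assembly factor of the vacuolar proton pump listed on the array as CCDC115, gave 0.84, 0.97 and 0.99 (hg19 chr2:131096025-131096084, minus strand; adjusted p = 0.00521) and -0.83, -0.42 and -0.86. It was therefore higher than control in one line and lower in the other, with a difference of 1.63 (adjusted p = 0.0439). Its second probe had a mean of 0.55 and a difference of 0.98 (adjusted p = 0.0999). The VMA22 and CFC1 probes lie 36 kb and 225 kb from that of PTPN18.

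PPP3CA encodes the main catalytic subunit of calcineurin, the calcium-dependent phosphatase that activates NFAT. It gave -2.22, -2.32 and -2.34 (hg19 chr4:101945294-101945353, minus strand; adjusted p = 0.00189) against -0.20, -0.37 and 0.33, a difference of -2.21 ± 0.18 (SE; adjusted p = 0.0439). The Cy3 signal was 2980, 2800 and 2630, and the Cy5 signal 675, 382 and 530. The gene was thus well measured in both dyes and about as low on each array. Of 20 tested genes listed for calcineurin and calmodulin signalling 0 rose and 4 fell (20%, beside 15.1% of all genes). These were PPP3CA, PCP4L1, RCAN2, a calcineurin regulator, at -0.79, -1.19 and -0.65 (adjusted p = 0.0423), and CAMK2D at -0.29, -0.54 and -0.55 (adjusted p = 0.014). Second probes of RCAN2 and CAMK2D were not called, with means of 0.13 (adjusted p = 0.152) and -0.12 (adjusted p = 0.337). Without replicate 2, 2 of the list were called. In the miR-338-5p line 0 of the 20 were higher and 3 lower, where 6% of all genes were lower. PCP4L1 was low there too, as given above, and the called RCAN2 and CAMK2D probes had means of -1.19 and -0.29. Of the 20 genes only PPP3CA passed the test of the difference.

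COMMD3 gave -1.01, -1.05 and -0.88 (hg19 chr10:22608978-22609037, plus strand; adjusted p = 0.00189) against 0.27, 0.28 and 0.35, a difference of -1.28 ± 0.08 (SE; adjusted p = 0.0303). MAP7D1, a microtubule-associated protein, gave 1.04, 1.24 and 1.28 (hg19 chr1:36645937-36645996, plus strand; adjusted p = 0.00189) against 0.08, -0.10 and 0.05, a difference of 1.18 (adjusted p = 0.0439). A KRT8 probe gave 0.02, 0.17 and 0.10 against -0.84, -0.90 and -0.86, a difference of 0.96 (adjusted p = 0.0439). The other KRT8 probes had differences of 1.03 (adjusted p = 0.0688) and 0.21 (adjusted p = 0.532). KRT83, 3 keratin 8 pseudogenes and a probe with no gene name had differences of 1.03 to 1.28. KRT8 has many near-identical copies, and which of them these probes read cannot be told apart.

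The number of probes past the threshold of the difference was small and moved with the arrays kept: leaving out any 1 of the 6 arrays left 0 to 4. For the 13 probes the difference kept its sign in all 16 alternatives run. Without any 1 array it stayed between -3.20 and -2.93 for CFC1, between 2.18 and 2.40 for SOD3, between 2.22 and 2.49 for PTPN18, between -2.36 and -2.01 for PPP3CA and between -1.34 and -1.25 for COMMD3.

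**Figure D4:**
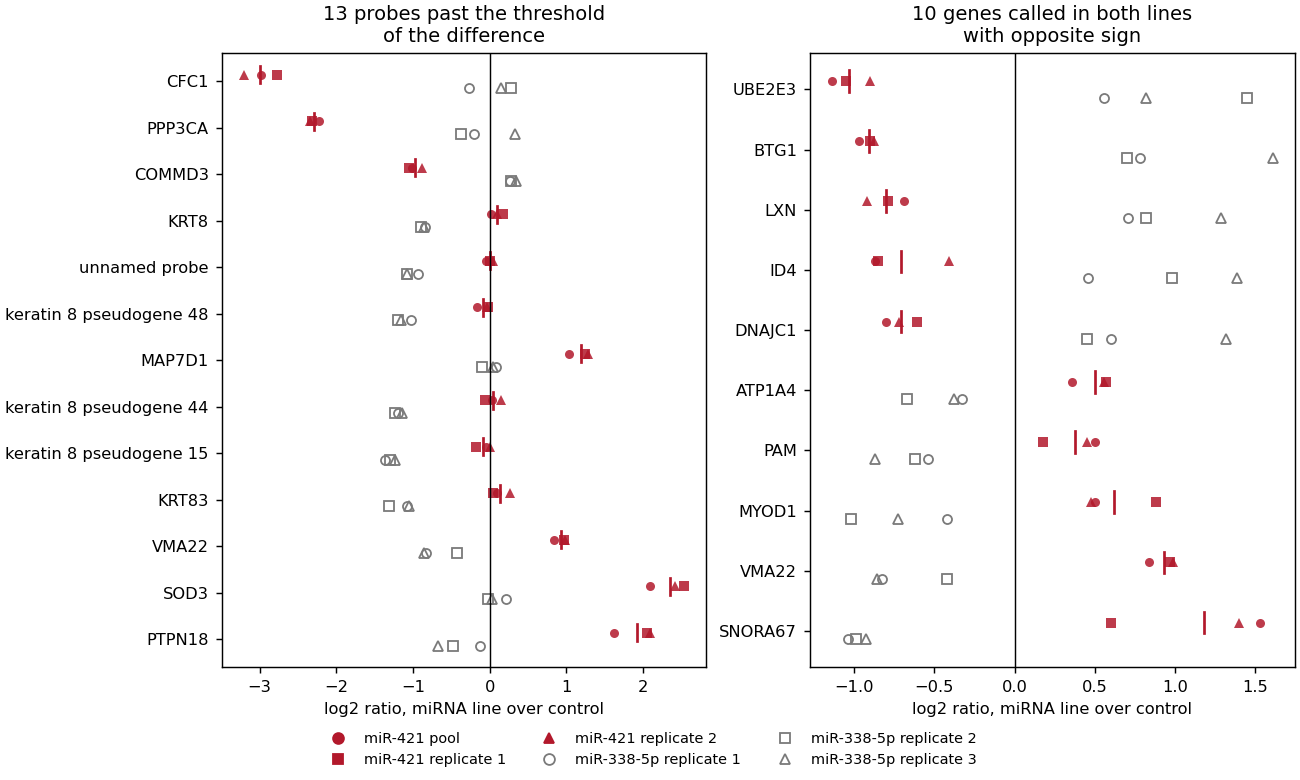
Log2 ratio over control on each array (x axis) for the 13 probes past the threshold of the difference between the lines (left) and for 10 genes called in both lines with opposite sign (right). Filled symbols are miR-421 arrays with their mean as a tick, open symbols miR-338-5p arrays; CFC1, PPP3CA and COMMD3 have all 3 filled symbols below 0, and the 10 genes on the right lie on opposite sides of 0 in the 2 lines.

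Of the 4075 called genes, 1620 had no overlap between the lines, 783 above and 837 below the miR-338-5p values. Over all 15789 genes with a value on every array, 1633 (10.3%) lay above and 1766 (11.2%) below. Called genes were already chosen for a shift from control, so 1620 is no count of genes shown to differ between the lines. Only 13 of 27489 probes passed the test of the difference. Among the 1620 genes, the 10 lowest by difference were CBLN2, CFC1, VIM, PDK4, PPP3CA-DT, PPP3CA, HLA-DQB1, ELF5, DDIT4L and UBE2E3. The 10 highest were S100P, PHGR1, WDR70, LURAP1L, LASP1, PABPC1L2B-AS1, FMOD, NCEH1, SOD3 and CHGA. HLA-DQB1, a class II antigen-presenting chain, gave -2.33, -2.18 and -3.02 (adjusted p = 0.0109) and -0.62, 0.69 and -1.35, and all 5 of its tested probes were called lower. PHGR1, a small protein of gut epithelium, gave 2.33, 1.69 and 2.07 (adjusted p = 0.0148) against 0.17, -1.74 and -1.12. NCEH1, a cholesteryl ester hydrolase, gave 2.39, 2.06 and 1.87 (adjusted p = 0.00718) against 0.53, -0.52 and -0.83. Apart from CFC1, PPP3CA and SOD3, these genes did not pass the test of the difference (adjusted p = 0.0559 to 0.438).

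Both lines called 30 genes with opposite sign, 15 higher and 15 lower under miR-421, with sizes of 0.21 to 1.18 in the miR-421 line. VMA22 and COMMD3 are the 2 that passed the test of the difference; the others had adjusted p-values up to 0.117. BTG1, an antiproliferative gene, gave -0.97, -0.90 and -0.88 (adjusted p = 0.02) and 0.78, 0.70 and 1.61 under miR-338-5p. CDKN1B, which encodes the cyclin-dependent kinase inhibitor p27, gave -0.56, -0.65 and -0.44 against 0.77, 0.46 and 0.79, a difference of -1.22 (adjusted p = 0.0561). Opposite signs in the 2 lines were the rule by which BTG1 and CDKN1B were listed. Neither passed the test of the difference (adjusted p = 0.0736 for BTG1). LXN, a carboxypeptidase inhibitor, gave -0.69, -0.79 and -0.92 against 0.71, 0.82 and 1.29 (difference -1.74, adjusted p = 0.0559). UBE2E3, a ubiquitin-conjugating enzyme, gave -1.14, -1.05 and -0.90 against 0.56, 1.45 and 0.82 (difference -1.97, adjusted p = 0.0688). Another UBE2E3 probe was also called lower (mean -0.93, adjusted p = 0.0196), with a difference of -1.84 (adjusted p = 0.0774). The remaining UBE2E3 probe was not called (mean -0.44, adjusted p = 0.223), with a difference of -1.46 (adjusted p = 0.175). Among those higher under miR-421, the small nucleolar RNA SNORA67 gave 1.53, 0.60 and 1.40 against -1.04, -0.99 and -0.93 (difference 2.16, adjusted p = 0.0688), and PAM, which amidates peptide hormones, gave 0.50, 0.18 and 0.45 against -0.54, -0.62 and -0.87. A second PAM probe had a mean of 0.10 (adjusted p = 0.306).

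Several of these genes lie near each other, and the 6 neighbourhoods described here were picked after their values were seen. Within 1 Mb of the PPP3CA probe 2 other genes were tested. PPP3CA-DT, its divergent transcript, lay 325 kb away and gave -2.23, -2.20 and -2.07 (adjusted p = 0.00826) against -0.30, 0.02 and 1.29. DDIT4L, an inhibitor of mTOR signalling, lay 838 kb away and gave -1.90, -2.79 and -1.39 (adjusted p = 0.00839) against -0.41, 0.18 and 0.25. Both were below all miR-338-5p values.

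Within 1 Mb of COMMD3, all 8 tested neighbours had a negative difference, from -1.50 to -0.04 with a median of -0.36, and 4 did not overlap between the lines (10.3% of all genes lay above and 11.2% below). BMI1, 11 kb away, and DNAJC1, 561 kb away, were called lower under miR-421 and had differences of -1.13 and -1.50. A second DNAJC1 probe was not called (mean -0.44, adjusted p = 0.0684). Within 1 Mb of UBE2E3 the difference of ITPRID2, 872 kb away, was -1.98 (adjusted p = 0.101), and 3 of 4 neighbours lay below the miR-338-5p values, as did 11.2% of all genes.

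Near LASP1, 35 neighbours were tested and 14 did not overlap between the lines, where 10.3% of all genes lay above and 11.2% below. Among the 5 nearest were the small nucleolar RNA SNORA21 (68 kb), RPL23 (71 kb), CWC25 (118 kb) and PIP4K2B (155 kb). They were called higher at 1.97, 1.37, 0.64 and 0.61, with differences of 1.68, 0.97, 0.79 and 0.67. The other of the 5, PLXDC1 (146 kb), was not called (mean 0.19, adjusted p = 0.102). The probes of SNORA21 and RPL23 start at 37009118 and 37006364 on chromosome 17, so these neighbours may not be independent. The median difference of the 35 was 0.15. Beside WDR70, GDNF, a growth factor for neurons, lay 60 kb away and gave 2.14, 0.92 and 2.22 (adjusted p = 0.0147), with a difference of 1.94 (adjusted p = 0.163), and the other 4 neighbours overlapped. The 8 neighbours of SOD3 had differences of -0.59 to -0.03, opposite in sign to its own.

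**Figure D5:**
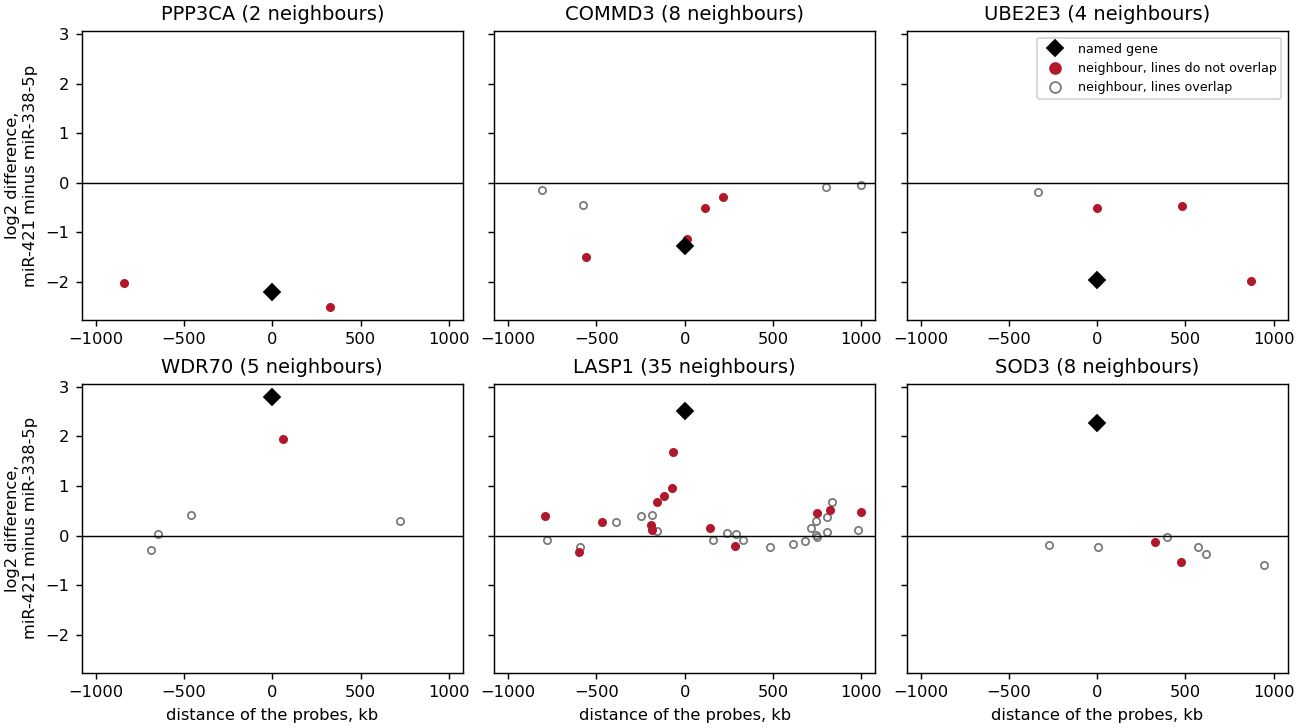
Difference of the log2 ratios, miR-421 minus miR-338-5p (y axis), of tested genes within 1 Mb of 6 named genes against the distance of their probes from that gene's probe in kb (x axis). The diamond is the named gene, filled circles are neighbours whose 2 lines do not overlap, open circles those that do; both neighbours of PPP3CA lie at or below -2.03, and those of SOD3 lie between -0.59 and -0.03.

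The array probes were searched for the letters CTGTTGA, the match to the miR-421 seed, on the probe's own strand. Of 27503 probes of 60 bases that passed the filter, 176 (0.64%) held it. Among these, 21 were called higher (11.9%) and 28 lower (15.9%), beside 9.18% and 12.4% of all, and the median log2 ratio was 0.00 in both. A probe covers only a small piece of a transcript, so a match describes that piece and the absence of one says nothing about the rest. Several of the larger calls in each direction are shown, picked after their values were seen, with up to 16 bases before the match, which is in capitals.
ZFP36L2: aaaagtcgaactttttCTGTTGA
ARHGAP12: ttacagggagcatggtCTGTTGA
ELMOD1: gaattatgattgtagtCTGTTGA
SLC3A2: atccaacaaagacttgCTGTTGA
GADD45G: tttctaaaggatgctgCTGTTGA
ZFP36L2, which promotes decay of messenger RNAs with AU-rich elements, gave -1.19, -2.12 and -1.50 (adjusted p = 0.00612), below all of its miR-338-5p values. ARHGAP12 had a mean of -1.02 (adjusted p = 0.00728), and ELMOD1, with Cy5 above background on 2 of 3 arrays, gave -0.99, -0.89 and -0.98 (adjusted p = 0.00976). The same letters stood in probes of genes that rose. SLC3A2, the heavy chain of amino acid transporters, gave 1.07, 1.53 and 1.64 (adjusted p = 0.00445), and GADD45G, a stress gene, gave 1.55, 1.1 and 1.75 (adjusted p = 0.0227).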

How the data were processed

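Per the labels, total RNA was tailed with poly(A), primed with oligo-dT and labelled with Cy3 (control line) or Cy5 (microRNA line). Per the file headers, the authors read 1 slide of 6 arrays with Feature Extraction 11.5.1.1, in 1 scan, so no batch could be tested, and the deposited intensity values are mean spot and median local background brightness, not normalized. Per the file headers, the deposited log10 ratio was background-subtracted and dye-normalized by that software. The authors also deposited log2 ratios per gene name, red over green, which matched that software ratio (r 0.962 to 0.98 over names, slope 0.98 to 0.99), and whose array medians were 0.03, 0.02 and -0.06 (miR-338-5p replicates 1 to 3) and -0.16, 0.01 and -0.12 (miR-421 pool, replicates 1 and 2); their centring is not known. Both served as alternatives only.

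Background was corrected by normexp (offset 50), arrays were normalized by loess with control spots at weight 0, outlier spots were left out and spots of a probe averaged. Of 58201 probes, 27503 were kept because at least 3 of the 6 arrays had them well above background in Cy3 or Cy5. R 4.3.3 and limma 3.58.1 fitted a mean per line over all 6 arrays (lmFit, eBayes, prior degrees of freedom 2.05), with two-sided tests and Benjamini-Hochberg adjustment over probes. The fit was tested on simulated data. No dye swap was made, so a probe's dye bias enters each comparison with control. If 1 control culture served all arrays, the test against 0 leaves out its spread. Of tested probes 19856 were named by accession through RefSeq (GRCh38.p14, names only) and 1329 by symbol, and 6318 had no symbol. Probe positions are on hg19, per the file headers, and exon or UTR annotation was not used here.

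Named genes were the 15 largest rises and falls with 1 sign on all 3 arrays, every probe past the difference, the 10 highest and lowest without overlap, up to 5 with opposite signs each way, up to 4 per list by size, SPINK1, EZH2, AATK, FTX and the reported targets. A few others were named after their values were seen (neighbours, seed matches, BMI1, CDKN1B, glycolysis members). The members and the gene lists were chosen with earlier results of these data known, and list counts and medians are descriptions with no set test. Lists not described in the report (claudins, MAPK feedback, TGF-beta, S100, stem cell, oxidative phosphorylation, antioxidant) are given in the closing section. Alternatives covered background correction, normalization, source of the ratios, filter, outlier spots, each array left out, variance model, arrays fitted, the rule for a gene with several probes, and a block on the replicate number. Precision is limited by the 3 arrays per line. Results for a few list members are not reported here.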

Additional observations from a re-analysis of the deposited data

Results flagged for a closer look

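The following differences between the lines, miR-421 minus miR-338-5p on the log2 scale, were tested and passed in limma: CFC1 -3.04, PPP3CA -2.21, COMMD3 -1.28, KRT8 0.96, the unnamed probe A_33_P3221980 1.03, MAP7D1 1.18, KRT83 1.28, VMA22 1.63, SOD3 2.27 and PTPN18 2.34. The keratin 8 pseudogenes 48 (ENST00000515599), 44 (ENST00000441609) and 15 (ENST00000425226) had differences of 1.05, 1.22 and 1.23.

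A further set of genes had opposite signs on all arrays of the 2 lines without passing that test (adjusted p = 0.0559 to 0.156). Those lower under miR-421 had differences of -1.97 for UBE2E3, -1.94 for BTG1, -1.74 for LXN, -1.65 for ID4, -1.50 for DNAJC1 and -0.94 for PFKFB2. Those higher under miR-421 had differences of 0.95 for ATP1A4, 1.05 for PAM, 1.34 for MYOD1, 1.99 for SPOCK1 and 2.16 for SNORA67.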

How the results depend on the processing

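Against 5950 called probes, median centring gave 3877, leaving out 1 array gave 629 (without miR-421 replicate 2) to 5506, and the share lower stayed between 52.3% and 61.4%. Against 13 probes past the difference, there were 46 with no background correction, 2 with median centring, 2 with the software ratio, 6 in the authors' table, 89 with a trended robust variance, 20 with the mean of a gene's probes and 0 to 4 with 1 array left out. The share of these that were lower was 23.1%, against 66.7% in the authors' table and with plain subtraction, 50% with median centring and 100% with the software ratio, 45.7% with no correction, 36.4% without the filter, 39.3% with the trended variance and 35% with the mean of probes. The 4075 called genes kept their sign for at least 4034 in every alternative run. SPINK1 kept its call in 15 of 17 alternatives, at -7.31 to -6.41; it was -6.85 to -6.41 with 1 array left out, and -6.85 (adjusted p = 0.0547) without replicate 2.

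Replicate numbers 1 and 2 are shared by the lines. Deviations from the line means correlated at -0.14 and -0.211 for same-numbered arrays, and at 0.119 and 0.0444 for differently numbered ones. With so few arrays these values cannot decide whether same-numbered arrays were handled together. With the replicate number as a block on these 4 arrays, 0 probes were called for miR-421 and 0 for the difference, and SPINK1 was -6.41 (adjusted p = 0.107).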

Other observations

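In other lists the counts are to be read beside 10.6% of all genes higher and 15.1% lower. Of 15 stem cell and drug efflux genes 2 rose and 5 fell, among them CD24, a surface glycoprotein, with -2.23, -2.19 and -1.77 (adjusted p = 0.0159), and POU5F1 with -1.59, -1.35 and -1.46 (adjusted p = 0.0222) on one probe and a mean of -0.16 (adjusted p = 0.105) on another. Of 9 S100 genes 3 rose, with S100A6 at 0.76, 0.78 and 1.29 (adjusted p = 0.0143) beside S100P. Of 26 MAPK output and feedback genes 4 rose and 1 fell, with the phosphatase DUSP4 at 0.52, 1.23 and 0.77 (adjusted p = 0.015) and MAP2K1, the kinase above ERK, at -1.06, -0.79 and -1.16 (adjusted p = 0.00579). Of 30 TGF-beta and SMAD genes 2 rose and 3 fell, with GDF15, a stress cytokine, at 0.65, 2.77 and 1.57 (adjusted p = 0.038).

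Of 38 oxidative phosphorylation genes 4 rose and 6 fell, with SDHD of complex II at -0.79, -0.99 and -0.84 (adjusted p = 0.00326). Of 31 antioxidant and detoxification enzymes 4 rose and 6 fell, with catalase, CAT, at -1.0, -1.58 and -1.05 (adjusted p = 0.013) and thioredoxin, TXN, at -0.90, -0.62 and -1.25 (adjusted p = 0.00795), while SOD3 rose. Of 11 claudins CLDN11 alone was called. Without replicate 2, the calls left, higher and lower, were 0 and 0 for stem cell, 0 and 0 for S100, 0 and 1 for MAPK, 0 and 1 for TGF-beta, 0 and 1 for oxidative phosphorylation and 1 and 1 for antioxidant genes. In that fit 177 of all 15843 genes were higher and 277 lower.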
